A study of Mus musculus with 4 samples.

Results

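Effector molecules are the products with which regulatory T cells act on other cells, and 10 genes of this kind are described here out of 52636 genes counted: Gzmb, Il10, Ebi3, Fgl2, Areg, Ifng, Tnf, Lta, Ltb and Ccl5. They were taken by symbol as secreted effector molecules of regulatory and helper T cells, and all 10 were found in the count table. RNA was sequenced from mouse regulatory T cells, sorted on markers that include CD4 and bright CD25, in 2 libraries labelled Vav1R63WThemis1-T-/- and 2 libraries labelled Vav1R63W, replicates 2 and 3 of each, and values of a label are given in that order. The mice were C57BL/6 and 7 weeks old. Both genotypes carry the Vav1R63W allele of Vav1, an exchange factor and adaptor of T cell receptor signalling, and the first genotype also lacks Themis1, a T cell receptor signalling protein, in T cells. The Cre line or other means of that deletion is not given in the sources used here, nor whether the replicates came from separate animals, so the tests measure only the spread between these libraries, which may be technical. The comparison asks how the loss of Themis1 on the Vav1R63W background changes transcript levels in these cells.

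Regulatory T cells restrain other lymphocytes through contact receptors and through secreted products. The secreted ones include interleukin-10, heterodimeric cytokines built with the Ebi3 chain, the fibrinogen-like protein Fgl2, and granzyme B, a serine protease stored in cytotoxic granules. Amphiregulin, encoded by Areg, is a ligand of the epidermal growth factor receptor linked to tissue repair, whereas interferon gamma, the tumour necrosis factor (TNF) family cytokines and the chemokine Ccl5 are products of helper and cytotoxic T cells.

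The libraries held 13963670 to 15953194 reads assigned to genes, with a read in 10809 to 12049 genes. Themis, the targeted gene, went against the label of 1 library, as it had 685 reads in the library labelled Vav1R63WThemis1-T-/- replicate 2 and 0 in that labelled replicate 3, against 283 and 97 in the libraries labelled Vav1R63W. Each direction below is therefore between labels, and the deleted part of the gene is not given in the sources used here. The sorted cell type had its defining markers, since Foxp3, Il2ra, Ikzf2, Tnfrsf18, Cd4 and Cd3e had reads in every library. Foxp3, the lineage transcription factor, had 16178 and 10289 reads in the libraries labelled Vav1R63WThemis1-T-/-, against 12658 and 9161 in those labelled Vav1R63W. Levels are given as counts-per-million (CPM) of the reads in genes. Cd8a, the NK cell genes Ncr1, Klrb1c and Klrk1, the B cell genes Ms4a1 and Pax5, the macrophage genes Lyz2, Csf1r and Adgre1, and all 4 neutrophil markers had 0 reads in every library. Other markers of those cell types were present, among them Cd79b with 567 to 915 reads, Cd79a with 0 to 135, Klrd1 with 0 to 182 and Cd8b1 with 270 to 555. In sorted bulk RNA, fewer cells that express a gene and less RNA of it per cell cannot be told apart.

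Of these genes, Ltb, Tnf and Lta are neighbours and lie within 10913 bases of chromosome 17 (GRCm38). Ltb (chr17:35194439-35196320, plus strand) is followed after 3060 bases by Tnf (chr17:35199381-35202007, minus strand) and after another 1157 bases by Lta (chr17:35203165-35205351, minus strand). Their upstream sequences are shown because these adjacent genes had very different levels, and because the title of the series names RelA, an NF-kB subunit. Each is RefSeq sequence of GRCm38.p6, 5′ to 3′ on the strand of the gene, and ends at the base before the annotated gene. Capitals mark a form of the NF-kB site (GGG, any 3 bases, then TTCC), searched on both strands, and TATAAA, searched on the strand of the gene.
Ltb: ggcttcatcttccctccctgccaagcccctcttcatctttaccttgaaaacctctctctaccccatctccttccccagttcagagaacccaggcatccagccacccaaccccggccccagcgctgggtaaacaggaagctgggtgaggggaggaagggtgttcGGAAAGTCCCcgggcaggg
Tnf: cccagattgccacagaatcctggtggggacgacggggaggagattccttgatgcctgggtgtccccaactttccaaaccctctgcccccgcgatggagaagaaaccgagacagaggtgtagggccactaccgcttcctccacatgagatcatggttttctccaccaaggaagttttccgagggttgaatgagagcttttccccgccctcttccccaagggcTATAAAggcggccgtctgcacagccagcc
Lta: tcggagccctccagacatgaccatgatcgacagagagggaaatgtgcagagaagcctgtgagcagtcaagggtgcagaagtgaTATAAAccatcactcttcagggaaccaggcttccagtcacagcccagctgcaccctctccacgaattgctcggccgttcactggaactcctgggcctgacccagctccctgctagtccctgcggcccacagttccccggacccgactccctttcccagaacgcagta
They lie at chr17:35194257-35194438 for Ltb, chr17:35202008-35202257 for Tnf and chr17:35205352-35205601 for Lta. In the 250 bases before the RefSeq start site, 8 of the 10 members had an entry, and 1 of them, Ltb, held the NF-kB letters, read there as GGAAAGTCCC on the opposite strand, beginning at -87 from the RefSeq start site. These letters occur in 4.65% of the 32851 promoter windows of that length. The RefSeq start site of Ltb lies inside the annotated gene. The Ltb sequence above is therefore only the 182 bases of its window before that gene, and -87 is not counted from its end. TATAAA was in 4 of the 8 members, against 7.59% of all windows, and began at -29 in Tnf, -30 in Ifng, -31 in Areg and -167 in Lta. A match is a description of the letters and not of binding.

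The members comprised 2 abundant genes, 7 sparse genes and 1 gene without a read. Levels per length, in CPM per kilobase of exon (RPKM), were used to compare genes, and averaged 278 for Ltb and 94.7 for Lta over the 4 libraries. The mean RPKM of the other genes was 8.97 for Ccl5, 7.51 for Ebi3, 7.14 for Tnf, 5.71 for Fgl2, 3.88 for Gzmb, 3.81 for Areg and 0.966 for Ifng. The value of Ebi3 may be too low, because reads in bases shared with an antisense gene were left out of it. Every library placed Ltb first and Lta second, with no overlap between the libraries of these genes or with those of any other member. Below them the order was not fixed, because the ranges over the libraries of neighbouring genes overlapped. Il10 (ENSMUSG00000016529, chr1:131019845-131024974, plus strand), the gene of interleukin-10, had 0 of 58318623 reads in the 4 libraries together. That allows a level of up to 0.0514 CPM, taking 3 reads as the limit that a count of 0 allows. This limit covers counting error only, and not other differences between libraries.

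**Figure D1:**
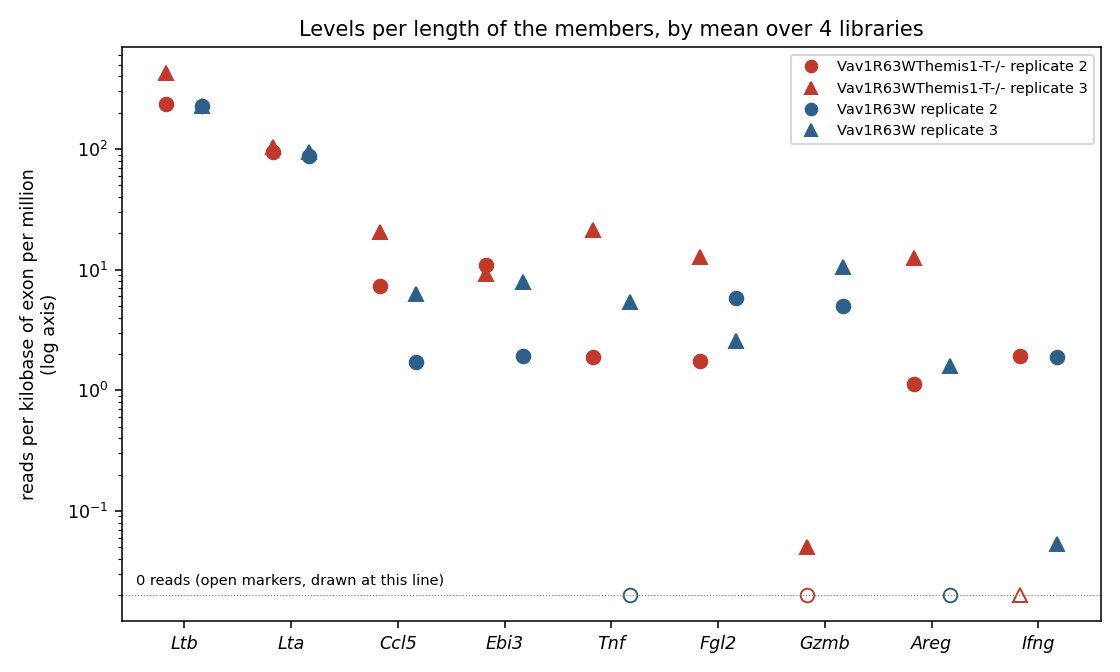
RPKM (log axis) of the 9 members with reads, in order of their mean over the 4 libraries. Points are libraries, circles for replicate 2 and triangles for replicate 3, with those labelled Vav1R63WThemis1-T-/- in red left of those labelled Vav1R63W in blue, and open markers on the dotted line are libraries with 0 reads. Ltb and Lta stand above the rest in every library, and the other 7 spread over ranges that overlap.

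No member passed the test between genotypes. The edgeR quasi-likelihood test, adjusted over all genes by Benjamini-Hochberg, called 0 of the 9 tested members and 0% of the 10216 genes tested, with 4.98% of genes and 1 member, Gzmb, at an unadjusted p under 0.05. limma-voom also called 0% of genes and 0 members, with 483 genes at an unadjusted p under 0.05. DESeq2 called 1.92% of 10748 genes, 1.13% lower and 0.791% higher, and 1 of the members, Gzmb, lower. In the authors' deposited table, of 7865 genes with an adjusted p, 1.56% were called, and of the 6 members with one, 0. Fold changes are log2 values of the libraries labelled Vav1R63WThemis1-T-/- over those labelled Vav1R63W. Of the 9 members, 8 had a positive one and 1 a negative one, with a median of 0.85, where 50.1% of all tested genes were positive, with a median of 0.0019. With limma-voom 7 were positive, since Ifng turned. Without the library labelled Vav1R63WThemis1-T-/- replicate 2, whose Themis reads go against its label, 7 had positive values, against 42.9% of genes, and without replicate 3 of that label 6 were, against 46.1%. Levels of the groups did not overlap for 4 of the 9, against 33.8% of all tested genes. Of these, Gzmb was lower, as were 18.7% of genes, and Ebi3, Ltb and Ccl5 were higher, as were 15.1%. Without the library labelled Vav1R63WThemis1-T-/- replicate 2, a comparison added after seeing the data with 1 library on that side, 9 of the 9 did not overlap, against 73.1% of genes, and 7 of them were higher, against 33.3%. For Ifng this rests on 0 reads against 1 in the nearest library, below the floor of 3 reads. In the edgeR fit without that library the log2 fold change was -7.08 for Gzmb, 0.94 for Ebi3, 1.66 for Fgl2, 3.98 for Areg, 2.99 for Tnf, 0.23 for Lta, 0.94 for Ltb, 2.39 for Ccl5 and -7.12 for Ifng, and 0 members passed.

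**Figure D2:**
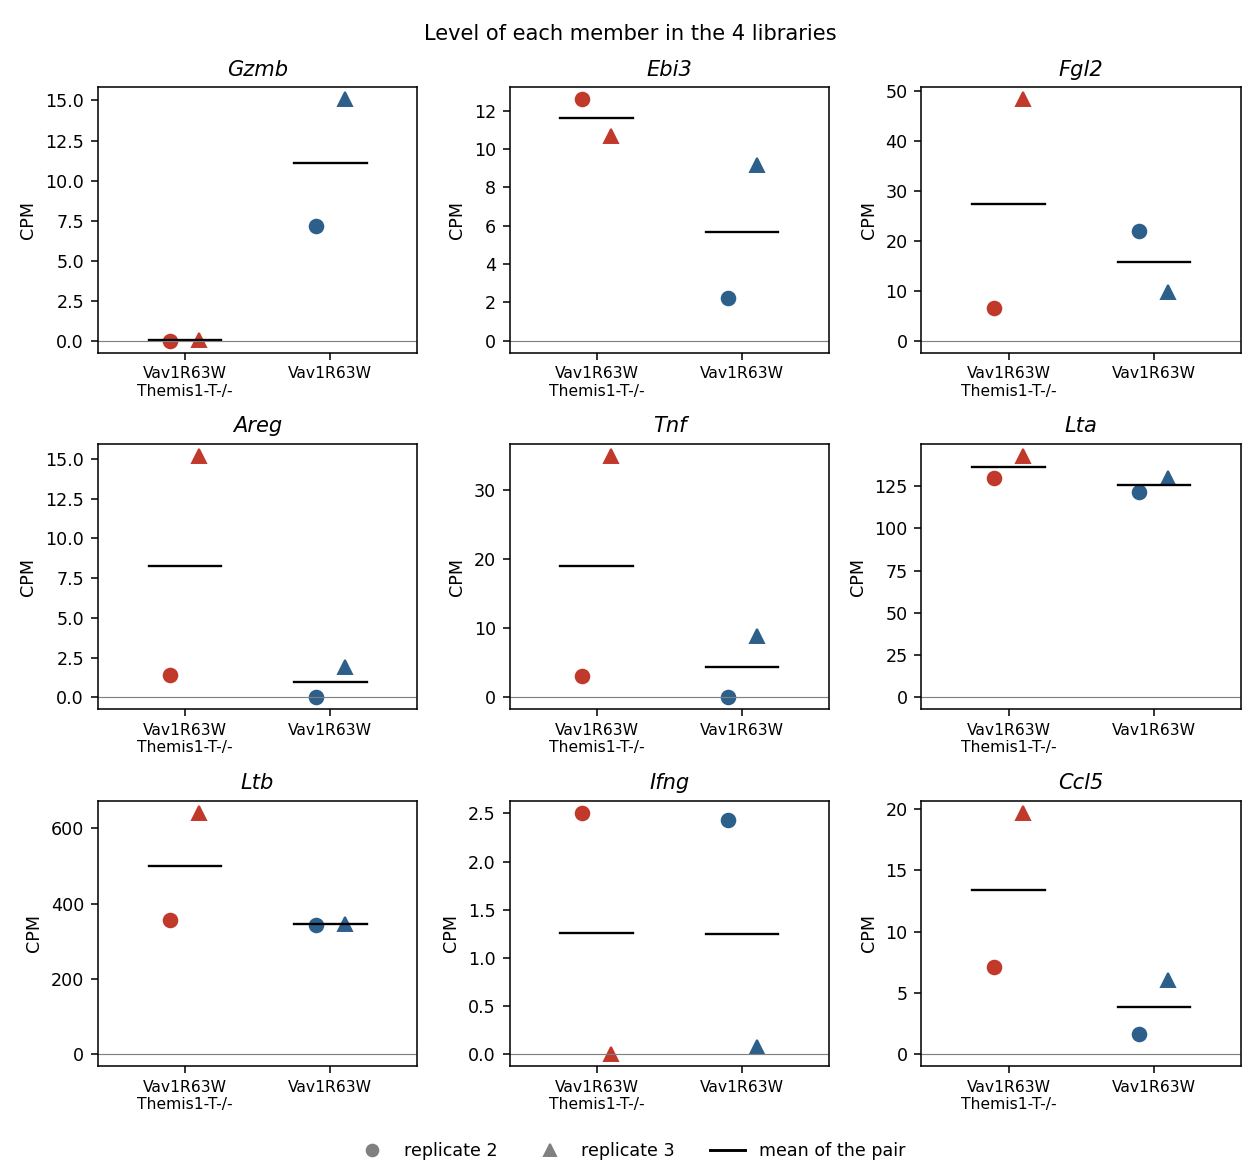
CPM of each of the 9 members with reads in each library (linear axes from 0, a panel per gene), with the libraries labelled Vav1R63WThemis1-T-/- in red left of those labelled Vav1R63W in blue. Circles are replicate 2, triangles replicate 3, and the line is the mean of the pair. Gzmb is at 0 to 0.0716 CPM in the red libraries, Lta differs little between all 4, and Fgl2, Areg, Tnf, Ltb and Ccl5 are highest in the library labelled Vav1R63WThemis1-T-/- replicate 3.

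Among the 9 tested members, granzyme B had the fold change farthest from 0. Gzmb (ENSMUSG00000015437, chr14:56258838-56262260, minus strand), which encodes the protease, had 0 and 1 reads in the libraries labelled Vav1R63WThemis1-T-/- replicates 2 and 3, against 100 and 217 reads in those labelled Vav1R63W. That is 0 and 0.0716 CPM in the libraries labelled Vav1R63WThemis1-T-/- against 7.14 and 15.1 CPM in those labelled Vav1R63W, so both libraries of the first label lay far below both of the second. Klrd1, an NK and cytotoxic T cell marker, had 0 and 1 reads in the libraries labelled Vav1R63WThemis1-T-/-, against 0 and 182 in those labelled Vav1R63W. Unlike Gzmb, it had 0 reads in Vav1R63W replicate 2. The NK cell markers Tyrobp, Fcer1g and Itga2 went the other way, with 215, 46 and 236 reads in the library labelled Vav1R63WThemis1-T-/- replicate 3. The part of NK cell RNA in the level of Gzmb was not tested. The ratio of summed reads, scaled by library totals, was 0.00299 (exact 95% binomial interval 7.56e-05 to 0.0168), an interval for counting error only, since PCR copies are not independent molecules. Gzmb entered the test through the libraries where it is high. Its fitted log2 fold change was -7.97 ± 2.53 (SE, edgeR unadjusted p = 0.0311, adjusted p = 0.902), a value that depends on how counts of 0 are treated. DESeq2 gave -8.31 with an adjusted p of 0.0305. Gzmb had a log2 fold change of -0.63 in the authors' deposited table, with an unadjusted p of 0.0278 and no adjusted p. The log2 values of that table were smaller in size than the DESeq2 fits here of the same counts. That held also for Tnf (0.18 against 2.12) and Ccl5 (0.41 against 1.83). The sizes are therefore not the same measure, and how the deposited ones were derived was not tested. DESeq2 fits that left out a library were added after seeing the data. The log2 fold change was -7.24 without the library labelled Vav1R63WThemis1-T-/- replicate 2 and -9.92 without replicate 3 of that label. It was -8.77 without Vav1R63W replicate 2 and -7.63 without Vav1R63W replicate 3, where the call of Gzmb ended. These fits leave 1 library in a group and do not show how firm the call is.

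Other genes also had near to no reads under 1 label. Of 6786 genes with at least 100 reads in both libraries labelled Vav1R63W, 57 (0.840%) had at most 1 read in both libraries labelled Vav1R63WThemis1-T-/-. Of 6221 genes with at least 100 reads in both libraries of that label, 26 (0.418%) had at most 1 read in both labelled Vav1R63W. These read limits were set after the values of Gzmb were seen.

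The other granzymes, which were also looked at after their values were seen, were sparse. Gzmc had 55 and 0 reads in the libraries labelled Vav1R63WThemis1-T-/-, against 216 and 90 in those labelled Vav1R63W. Gzma had 73 and 1 reads in the libraries labelled Vav1R63WThemis1-T-/-, against 0 and 0 in those labelled Vav1R63W. Gzmm had 7 and 0 reads in the libraries labelled Vav1R63WThemis1-T-/-, against 5 and 0 in those labelled Vav1R63W, and Gzmd, Gzme, Gzmf, Gzmg, Gzmk and Gzmn had 0 in every library. Granzyme genes are similar in sequence, so reads could in part be assigned to the wrong member. Prf1, the pore-forming perforin with which granzymes enter target cells, also chosen after its values were seen, had 581 and 1 reads in the libraries labelled Vav1R63WThemis1-T-/-, against 210 and 354 in those labelled Vav1R63W. Of 21 granzyme and granule genes, 13 were tested and 0 passed in either direction, with 7 positive and 6 negative fold changes and a median of 0.07, beside 0.0019 over all genes. Srgn, the granule proteoglycan that holds granzymes, was the most abundant of them at 1020 ± 136 CPM in the libraries labelled Vav1R63WThemis1-T-/- and 896 ± 35.8 CPM in those labelled Vav1R63W (SD, n = 2 each). Unc13d, a granule priming factor with the smallest p of the list, was at 185 and 69.9 CPM in the libraries labelled Vav1R63WThemis1-T-/-, against 77.6 and 51.3 CPM in those labelled Vav1R63W (edgeR adjusted p = 1.000).

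Ebi3 (ENSMUSG00000003206, chr17:55952640-55957022, plus strand), the chain shared by interleukin-27 and interleukin-35, was at 12.6 and 10.7 CPM in the libraries labelled Vav1R63WThemis1-T-/-, against 2.21 and 9.17 CPM in those labelled Vav1R63W. The groups did not overlap, but replicate 3 labelled Vav1R63W was close to the other label and replicate 2 stood alone below. The log2 fold change was 1.04 ± 1.57 (SE, adjusted p = 1.000 in edgeR). An antisense gene, Gm16712, shares 270 of the 1154 exon bases of Ebi3 (23.4%), and reads of both genes cannot be told apart there. Without strand, Gm16712 had 0 and 15 reads in the libraries labelled Vav1R63WThemis1-T-/- and 0 and 0 in those labelled Vav1R63W. Summed over strands it had 221 and 345, against 64 and 175. Counts without strand thus left out reads of the shared bases, for Ebi3 as well, and its RPKM may be too low. Summed over the columns for each strand, Ebi3 had 420 and 394 reads in the libraries labelled Vav1R63WThemis1-T-/-, against 69 and 305 in those labelled Vav1R63W. The column without strand had 201 and 149 reads in the libraries of the first label, against 31 and 132 in those labelled Vav1R63W. Replicate 2 labelled Vav1R63W was lowest in both, and the log2 fold change of the strand sum was 1.08. Il27 and Il12a, the chains with which Ebi3 forms interleukin-27 and interleukin-35, had 0 reads in every library, as did the related chains Il12b and Il23a. Il27ra, a receptor chain for interleukin-27 and the gene with the smallest p among receptors of these ligands, was at 367 and 502 CPM in the libraries labelled Vav1R63WThemis1-T-/- and at 369 and 375 CPM in those labelled Vav1R63W. Ifngr1, a chain of the interferon gamma receptor and the most abundant, was at 592 and 390.1 CPM in the libraries labelled Vav1R63WThemis1-T-/-, against 622 and 508 CPM in those labelled Vav1R63W. Of 16 receptor genes, 9 were tested and 0 passed, with 4 positive and 5 negative fold changes and a median of -0.18.

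Fgl2 (ENSMUSG00000039899, chr5:21372642-21378374, plus strand), a secreted suppressor that binds the inhibitory Fc receptor on antigen-presenting cells, was at 6.58 and 48.3 CPM in the libraries labelled Vav1R63WThemis1-T-/-, against 21.9 and 9.72 CPM in those labelled Vav1R63W. The libraries of the first label held both the lowest and the highest value. The fitted log2 difference of 0.85 ± 1.30 (SE, adjusted p = 1.000 in edgeR) became -1.26 without the library labelled Vav1R63WThemis1-T-/- replicate 3.

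Areg (ENSMUSG00000029378, chr5:91139599-91148432, plus strand) was at 1.38 and 15.2 CPM in the libraries labelled Vav1R63WThemis1-T-/-, against 0 and 1.94 CPM in those labelled Vav1R63W. Only replicate 3 of the first label was clearly above the others, with 212 reads where the remaining libraries had 22, 0 and 28. The log2 fold change was 3.10 ± 2.91 (SE, adjusted p = 1.000 in edgeR) and 0.48 without that library. Of 9 genes for other ligands of the epidermal growth factor family and for the shedding of such ligands, 4 were tested and 0 passed. They had 3 positive and 1 negative fold changes and a median of 0.85. Adam17, the sheddase of both amphiregulin and TNF, had the smallest p of them and was at 85.1 and 28.4 CPM in the libraries labelled Vav1R63WThemis1-T-/-, against 24.3 and 20.9 CPM in those labelled Vav1R63W. Adam10, a related sheddase and the most abundant, was at 110.3 and 116 CPM in the libraries labelled Vav1R63WThemis1-T-/-, against 127 and 50.8 CPM in those labelled Vav1R63W.

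The adjacent TNF family genes had unlike levels and spreads. Ltb (ENSMUSG00000024399), which encodes the membrane-anchored lymphotoxin beta, was at 356 and 641 CPM in the libraries labelled Vav1R63WThemis1-T-/-, against 344 and 345 CPM in those labelled Vav1R63W. The libraries lay close together except replicate 3 of the first label, which stood above the others. Its log2 fold change was 0.57 ± 0.33 (SE, edgeR unadjusted p = 0.162, adjusted p = 1.000), with 0.94 without the library labelled Vav1R63WThemis1-T-/- replicate 2 (edgeR unadjusted p = 0.00678, adjusted p = 0.437) and 0.04 without replicate 3. In the fit without replicate 2, 1159 of 11579 genes were at an unadjusted p under 0.05, and the median of all genes was -0.20. The pair of libraries labelled Vav1R63WThemis1-T-/- differed 1.80-fold in Ltb (exact 95% binomial interval 1.74 to 1.86, counting error only), and 12.7% of 1869 genes between 100 and 1000 CPM differed at least as much between them. B cells also express Ltb and Lta. Of their markers, Ighm, the immunoglobulin mu heavy chain, was at 1274 and 1307 CPM in the libraries labelled Vav1R63WThemis1-T-/-, against 1111 and 1234 CPM in those labelled Vav1R63W, and Ms4a1 and Pax5 had 0 reads in every library. The B cell receptor chain genes Cd79a and Cd79b had higher means under the other label. Cd79a was at 2.38 and 0 CPM in the libraries labelled Vav1R63WThemis1-T-/-, against 9.64 and 5.35 CPM in those labelled Vav1R63W. Cd79b was at 35.5 and 62.7 CPM in the libraries labelled Vav1R63WThemis1-T-/-, against 58.3 and 63.6 CPM in those labelled Vav1R63W. The part of B cell RNA in the levels of Ltb and Lta was not tested.

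Lta (ENSMUSG00000024402), the secreted lymphotoxin alpha that also joins Ltb in a membrane heterotrimer, varied least over the 4 libraries. It was at 129.6 and 143 CPM in the libraries labelled Vav1R63WThemis1-T-/-, against 121 and 130.0 CPM in those labelled Vav1R63W, so that the groups overlapped. The log2 fold change was 0.14 ± 0.25 (SE, adjusted p = 1.000 in edgeR), and it ran from 0.04 to 0.23 with each library left out in turn.

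Tnf (ENSMUSG00000024401), the inflammatory cytokine itself, was at 3.07 and 34.9 CPM in the libraries labelled Vav1R63WThemis1-T-/-, against 0 and 8.89 CPM in those labelled Vav1R63W. In both labels replicate 3 was above replicate 2, and the groups overlapped. Between the libraries of 1 label, Tnf differed 11.4-fold in the libraries labelled Vav1R63WThemis1-T-/- (exact 95% binomial interval 8.45 to 15.6, counting error only) and 41.5-fold in those labelled Vav1R63W, with 0 reads taken as 3 (lower limit of the exact interval 33.3). The fitted log2 difference was 2.12 ± 2.90 (SE, adjusted p = 1.000 in edgeR) and turned to -0.56 without the library labelled Vav1R63WThemis1-T-/- replicate 3.

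Among 15 other ligands of the TNF superfamily, 5 were tested and 0 passed, with 3 positive and 2 negative fold changes and a median of 0.14. Tnfsf11, which encodes the osteoclast and lymph node factor RANKL, had 736 and 543 reads in the libraries labelled Vav1R63WThemis1-T-/-, against 18 and 83 in those labelled Vav1R63W. Both libraries of the first label were above both of the second, with a log2 fold change of 3.60 ± 1.17 (SE, edgeR unadjusted p = 0.0344, adjusted p = 0.917). Tnfsf8, the ligand of CD30 and the most abundant of the list, was at 29.6 and 33.5 CPM in the libraries labelled Vav1R63WThemis1-T-/-, against 64.2 and 11.2 CPM in those labelled Vav1R63W.

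Ifng (ENSMUSG00000055170, chr10:118441046-118445892, plus strand), the signature cytokine of type 1 helper cells, had 40 and 0 reads in the libraries labelled Vav1R63WThemis1-T-/-, against 34 and 1 in those labelled Vav1R63W. Replicate 2 of each label held nearly all reads, and the labels had almost the same mean, 1.25 CPM each, with a log2 fold change of 0.03 ± 2.70 (SE, adjusted p = 1.000 in edgeR). It was -7.12 without the library labelled Vav1R63WThemis1-T-/- replicate 2 and -0.93 without Vav1R63W replicate 3, and its sign also turned with 3 settings that keep all libraries. Another gene, Gm49751, shares 336 of the 1295 exon bases of Ifng (25.9%) on the same strand, and reads there cannot be told apart.

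Ccl5 (ENSMUSG00000035042, chr11:83525778-83530518, minus strand), a chemokine of memory and cytotoxic T cells, was at 7.08 and 19.7 CPM in the libraries labelled Vav1R63WThemis1-T-/-, against 1.64 and 6.04 CPM in those labelled Vav1R63W. Both libraries of the first label were above both of the second, by a small margin at the nearest pair. The log2 fold change was 1.82 ± 1.66 (SE, adjusted p = 1.000 in edgeR), and it stayed positive with each library left out, from 0.86 to 3.08. In the authors' deposited table its log2 fold change was 0.41 with an adjusted p of 0.797, and that of Ltb 0.49 with 0.522. The sizes of those deposited fold changes are not the same measure as the fits here. Of 15 other chemokine ligands, 12 had 0 reads in every library. Only Xcl1 and Cxcl10 were tested, and neither passed. Xcl1, the lymphotactin of activated T and NK cells, had 87 and 1 reads in the libraries labelled Vav1R63WThemis1-T-/-, against 84 and 0 in those labelled Vav1R63W, and Cxcl10, an interferon-induced chemokine, had 115 and 0 reads in the libraries labelled Vav1R63WThemis1-T-/-, against 37 and 0 in those labelled Vav1R63W. As for Ifng, replicate 2 of each label held nearly all reads of both.

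**Figure D3:**
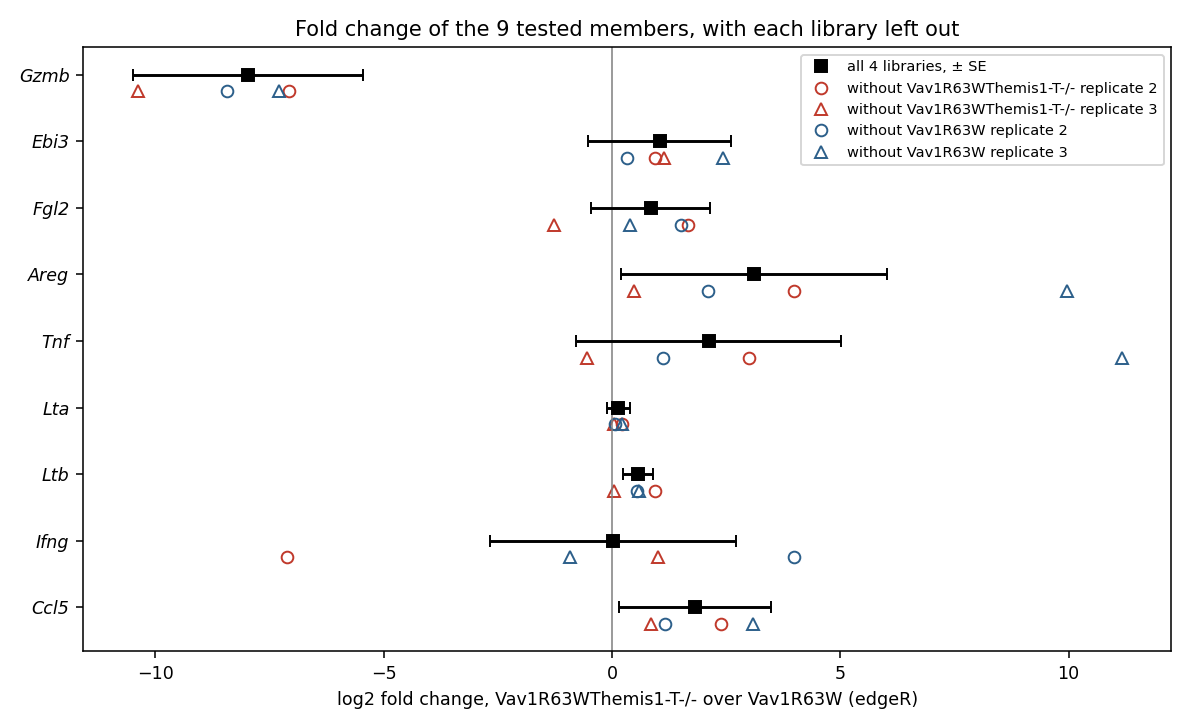
Log2 fold change of the 9 tested members, the libraries labelled Vav1R63WThemis1-T-/- over those labelled Vav1R63W. Black squares with bars are edgeR estimates from all 4 libraries ± SE, and open symbols below them are the estimates with the named library left out. Gzmb stays between -10.37 and -7.08, Lta between 0.04 and 0.23, and the estimates of Fgl2, Tnf and Ifng fall on both sides of 0.

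A single library held the highest level of most members. The library labelled Vav1R63WThemis1-T-/- replicate 3 was highest for 6 of the 9 tested members (66.7%), namely Fgl2, Areg, Tnf, Lta, Ltb and Ccl5, against 27.0% of all tested genes. It also had the fewest reads in genes (13963670), the fewest genes with a read (10809) and the largest share of reads outside genes (23.1%). The part of these traits in the levels of the members was not tested. The shares of genes highest in the other libraries were 24.9% in replicate 2 of that label, which held 2 members (Ebi3 and Ifng), 24.4% in Vav1R63W replicate 2, which held 0, and 23.7% in Vav1R63W replicate 3, which held 1 (Gzmb). The list of 7 NK cell markers summed to 35.7 CPM in this library and 0 CPM in replicate 2 of the same label, against 3.21 and 12.6 CPM in the libraries labelled Vav1R63W. Its Tyrobp, Fcer1g and Itga2 had 215, 46 and 236 reads in that library, while Ncr1, Klrb1c and Klrk1 had 0 in every library. The remaining NK cell marker, Klrd1, had 0 and 1 reads in the libraries labelled Vav1R63WThemis1-T-/-, against 0 and 182 in those labelled Vav1R63W. Tbx21, the transcription factor T-bet of type 1 responses, chosen after its values were seen, had 1 and 214 reads in the libraries labelled Vav1R63WThemis1-T-/-, against 4 and 0 in those labelled Vav1R63W. Some other type 1 and cytotoxic genes went the other way in the library labelled Vav1R63WThemis1-T-/- replicate 3, and some did not. There, Ifng and the transcription factor gene Eomes had 0 reads, and Prf1, Gzma and Xcl1 had 1 each. Nkg7 and Ctsw of the granule list, also chosen after their values were seen, were highest there, whereas Ctsc and Lamp1 were lowest. Nkg7 was at 122 and 160 CPM in the libraries labelled Vav1R63WThemis1-T-/-, against 119 and 154 CPM in those labelled Vav1R63W. Ctsw was at 248 and 280 CPM in the first, against 236 and 259 CPM in the second. Cd8b1, the remaining CD8 marker with reads, was at 30.3 and 19.3 CPM in the libraries labelled Vav1R63WThemis1-T-/-, against 26.1 and 38.5 CPM in those labelled Vav1R63W. Of 8 monocyte and macrophage markers, Ly6c2 and Cybb had reads, and the list summed to 19.2 and 39.0 CPM in the libraries labelled Vav1R63WThemis1-T-/-, against 27.1 and 22.4 CPM in those labelled Vav1R63W. The part of these transcripts in the levels of the members was not tested.

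The spread between libraries of the same label differed among the sparse members. Of 3521 genes between 1 and 10 CPM, 48.0% differed more than 5-fold between the libraries labelled Vav1R63WThemis1-T-/- and 44.0% between those labelled Vav1R63W, with counts under 3 taken as 3. Of 5368 genes between 10 and 100 CPM the share was 22.7% in the libraries labelled Vav1R63WThemis1-T-/- and 12.3% in those labelled Vav1R63W, and of 1869 genes between 100 and 1000 CPM it was 0.321% in the libraries labelled Vav1R63WThemis1-T-/- and 0.0535% in those labelled Vav1R63W. Areg, Ifng and Tnf exceeded 5-fold in both labels, Fgl2 exceeded it, at 7.34-fold, in the libraries labelled Vav1R63WThemis1-T-/-, and Ltb, Lta, Ccl5 and Ebi3 did in neither. Gzmb differed 2.11-fold between the libraries labelled Vav1R63W. Its 0 and 1 reads under the other label were both set to 3, so its spread could not be measured there. Ebi3 and Ccl5 differed 1.18-fold and 2.78-fold in the libraries labelled Vav1R63WThemis1-T-/-, where the median of genes between 1 and 10 CPM was 4.19-fold. In those labelled Vav1R63W they differed 4.14-fold and 3.68-fold, above the median of 3.26-fold. The 41.5-fold gap of Tnf between the libraries labelled Vav1R63W was matched or exceeded by 5.12% of genes of like level.

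**Figure D4:**
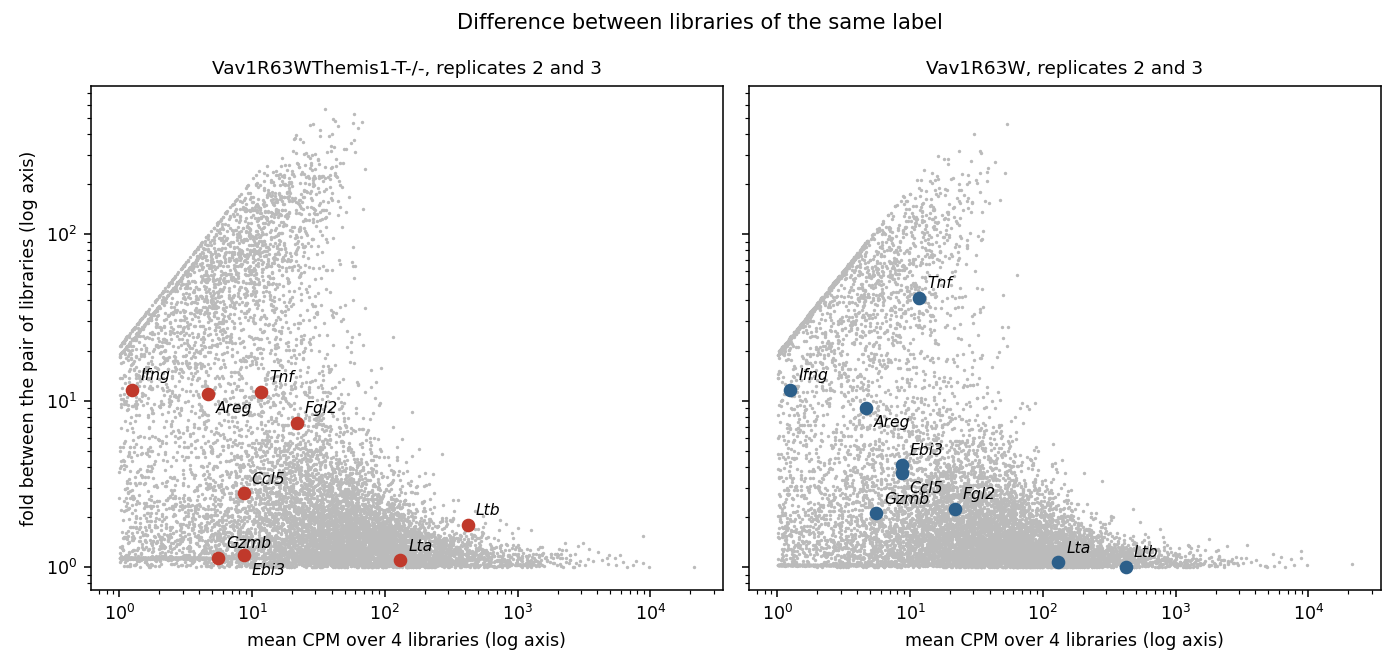
Fold between replicates 2 and 3 of the same label (log axis) against the mean CPM over the 4 libraries (log axis), for the libraries labelled Vav1R63WThemis1-T-/- on the left and those labelled Vav1R63W on the right. Grey points are all genes at 1 CPM or more, coloured points are the 9 members with reads, and counts under 3 were set to 3. Both counts of Gzmb in the left panel were set so, and its place there shows no measured spread. Sparse members such as Tnf, Ifng and Areg lie above 10-fold in the left panel, whereas Lta and Ltb lie at 1.10 and 1.80.

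Neither edgeR nor DESeq2 called a gene of the 9 related lists. Of 20 interleukin and helper cytokine genes, 10 had 0 reads in every library, 6 were tested and 0 passed, with 2 positive and 4 negative fold changes and a median of -0.05. Mif, the most abundant, was at 476 ± 18.5 CPM in the libraries labelled Vav1R63WThemis1-T-/- and 498 ± 3.66 CPM in those labelled Vav1R63W (SD, n = 2 each), and Osm, oncostatin M, at 31.1 ± 2.13 CPM in the libraries labelled Vav1R63WThemis1-T-/- and 21.4 ± 4.26 CPM in those labelled Vav1R63W. Of 15 other suppression genes of regulatory T cells, 13 were tested and 0 passed, with 8 positive and 5 negative and a median of 0.07. Ctla4, the inhibitory receptor, was at 112 and 93.0 CPM in the libraries labelled Vav1R63WThemis1-T-/-, against 173 and 159.6 CPM in those labelled Vav1R63W, both libraries of the first label below both of the second (log2 -0.68 ± 0.24, SE, edgeR unadjusted p = 0.0458, adjusted p = 0.987). Lgals1, galectin-1, the most abundant, was at 472 and 613 CPM in the libraries labelled Vav1R63WThemis1-T-/-, against 503 and 547 CPM in those labelled Vav1R63W. Of 16 transcription factors known for effector cytokine genes, 15 were tested and 0 passed, with 7 positive and 8 negative and a median of -0.08. Rela, which encodes the RelA named in the title of the series, was at 175 and 191 CPM in the libraries labelled Vav1R63WThemis1-T-/-, against 257 and 270.2 CPM in those labelled Vav1R63W (log2 -0.50 ± 0.19, SE, edgeR unadjusted p = 0.0499, adjusted p = 1.000).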

How the data were processed

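RNA was measured by sequencing in 4 libraries, 2 per genotype, grouped and numbered by their titles. Per the submitters' processing notes, the tools were Trim Galore for trimming and STAR for alignment, with FastQC and MultiQC for quality, and no versions are named. The design text names Ensembl release 90 and the processing notes mm9, which are different mouse builds. The deposited files hold raw counts per gene, without strand and per strand, per the file layout of STAR. The authors' deposited table holds the same counts (equal for all 52636 genes in each library). For the genotypes compared it also holds a fold change, the log2 of it and p-values, per the file headers. They are from DESeq2 run through SARTools, per the design text. The fold changes are not plain ratios of the counts, and how they were derived was not tested. The 4 columns of normalized values in that table were not used. The 4 summary lines of each file held 21.1% to 23.1% of reads and were left out.

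Counts without strand were tested with edgeR 4.0.16 (R 4.3.3): TMM, filterByExpr (minimum count 10, total 15), robust quasi-likelihood F test, two-sided, called at an adjusted p under 0.05. Standard errors were derived from the log2 value and the F statistic (log2 value over root F). CPM uses the total of reads in genes. Exon lengths, positions and overlaps are from GENCODE M21 (GRCm38), which was not used for counting, and promoters from RefSeq. Symbols matched 52403 IDs. An exact test on 2 against 2 libraries cannot go below p = 0.333, so none was made. Intervals and the floor of 3 reads cover counting error only. The scripts were tested on simulated counts. The median of the log2 fold change of each list is set beside that of all tested genes. Alternatives were DESeq2 1.42.0, limma-voom (limma 3.58.1), other normalizations, filters, strand columns and a replicate block, and each library left out. The members and lists were chosen with earlier results of these data known. Genes named are the members, Themis and, of each list, those with the smallest p and the highest mean CPM, besides exceptions marked in the text, cell type markers and genes at 0 reads. The kit named in the labels does not mark strand. Some marker genes are not reported here.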

Additional observations from a re-analysis of the deposited data

How the results depend on the processing

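Of 81 member fold changes under settings that keep all libraries, 77 kept their sign and stayed uncalled. DESeq2 called 206 genes and 1 member, against 0 and 0 in edgeR, and that member was Gzmb (log2 -8.31, adjusted p = 0.0305). Ifng turned negative with limma-voom (-0.65), with the replicate block (-0.90) and in counts of 1 strand (-0.0143). The cause of these differences was not tested. With the replicate block, 0 genes and 0 members were called, and Gzmb had a fitted value of -8.29 (unadjusted p = 0.0587), and 163 genes were at an unadjusted p under 0.05, 0 of them members; the block changed no call. The only known link between same-numbered libraries is the number. Their deviations from the group means correlated at 0.0181 over 10216 genes, a value that cannot show whether the libraries were paired.

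With each library left out in turn, 0 genes were called by edgeR in every fit, where the lone library of a group is assumed to vary like the others. The fold changes then ranged from -1.26 to 1.66 for Fgl2, -0.56 to 11.16 for Tnf, -7.12 to 3.99 for Ifng, 0.48 to 9.96 for Areg, 0.34 to 2.43 for Ebi3, 0.04 to 0.94 for Ltb and -10.37 to -7.08 for Gzmb. Those of Gzmb with DESeq2 ranged from -9.92 to -7.24. Without the library labelled Vav1R63WThemis1-T-/- replicate 2, 9 of the 9 tested members had no overlap between labels, against 4 with it. For Ifng the nearest libraries then had 0 reads and 1 read, below the floor of 3 reads. Summed over strands, Ebi3 averaged 24.9 CPM in the libraries labelled Vav1R63WThemis1-T-/- and 11.9 CPM in those labelled Vav1R63W, against 11.6 and 5.69 CPM without strand. Depth is a limit for Gzmb, Areg, Tnf and Ifng, where 0 reads correspond to up to 0.188 to 0.215 CPM per library, for counting error only. Libraries of a label can differ by more than that. Entpd1, for example, had 972 and 0 reads in the libraries labelled Vav1R63WThemis1-T-/-.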
